A study of Mus musculus with 13 samples.

Results

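The cells described here are monocytes of 16 mouse tissue samples that shared a Parse whole transcriptome (WT) library with 4 thymic samples. They were chosen by their own UMI counts, where a UMI (unique molecular identifier) stands for 1 captured RNA molecule. A cell was taken when it held 500 to 25000 UMIs in all and at least 3 UMIs, from at least 2 genes, of the 5 gate genes Csf1r, Ccr2, F13a1, Cx3cr1 and Lyz2. It was left out when it held more than 1 UMI of the macrophage genes Vcam1, Slc40a1, Spic and Axl, any UMI of the dendritic cell genes Flt3 and Xcr1, more than 2 UMIs of the neutrophil genes S100a8, S100a9, Ltf and Ngp, more than 1 UMI of the B cell genes Bank1, Ebf1 and Pax5, or more than 1 UMI of the T cell genes Themis, Skap1 and Bcl11b. The rule took 1476 of the 86786 cells in the wells of the 16 samples (1.70%, exact 95% binomial interval 1.62% to 1.79%), and the whole table held 128624 cells. The other 85310 cells of the same 40 wells are called the remaining cells. Since the gate genes chose the cells, every difference from the remaining cells is given as a description, with no test.

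The labels describe the library as thymus and spleen from young and adult mice, with control and chronic stress as treatments. They tie no single sample to an organ, an age, a strain or a treatment, and they do not say which samples share an animal. The 16 samples therefore carry the names of the cell table (CVS_C_1 to CVS_C_5, CVS_S_1 to CVS_S_6 and YD_C_1 to YD_C_5), no source used here says what these names stand for, and they are compared with each other by their values alone. Each sample entered 2 or 3 wells of the first barcoding round, and its cells were then pooled with all others and split again.

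Monocytes are blood-borne phagocytes made in the bone marrow, and the spleen also keeps a store of them. They depend on the growth factor receptor Csf1r and on transcription factors such as PU.1 (Spi1). In the mouse, classical monocytes carry much Ly6C and the chemokine receptor Ccr2, which lets them leave the marrow and enter inflamed tissue, where they can become macrophages or dendritic cells. Non-classical monocytes carry little Ly6C and much Cx3cr1, patrol the walls of blood vessels and need the nuclear receptor Nr4a1.

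Cells were found in all 16 samples, between 41 and 235 in each with a median of 76, and their summed depth per sample was 128515 to 795507 UMIs. A monocyte held a median of 3020.5 UMIs and 1158 genes, and a remaining cell 2949.5 UMIs and 1307 genes. Thinned to 1000 UMIs, the medians were 491 genes against 583. The thinning matched only total UMIs, of which the median share of ribosomal RNA was 27.4% in the monocytes against 20.9%, and that of mitochondrial UMIs 4.67% against 5.49%. Cdk8, Lars2, Cmss1 and Gphn, abundant genes in this library, were 1.51, 1.58, 1.71 and 1.61 times as high in the monocytes, and Malat1, a nuclear RNA, 0.645 times. The part of these differences in the results was not tested.

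The monocytes of CVS_S_5 stood apart. Among the 370 genes outside the rule that were raised in monocytes, as defined below, and had at least 200 UMIs in them, 16 lay at least 4-fold above the median of the samples in CVS_S_5, against 0 to 5 in each of the other samples. CVS_S_5 was the highest sample for 71 of these genes and the lowest for 91. A high value in 1 sample helps a gene to reach 200 UMIs, so the count of 16 is partly set by this limit. Of the 341 UMIs of Mmp8, 111 and 118 came from the 2 wells of CVS_S_5, and of the 225 of Thbs1, 71 and 77. Both genes reached the limit only through this sample. In its 2 wells, with 60 and 75 of its monocytes, Vcan was at 1491 and 1043 CPM, Chil3 at 1377 and 767 CPM and Mmp8 at 899 and 905 CPM, where CPM stands for UMIs scaled to 1000000 UMIs outside 3 ribosomal RNA genes. Values that rest on this sample are therefore given with and without it.

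The share of monocytes ran from 0.607% of the cells in CVS_C_3 to 5.89% in CVS_S_4, with a median of 1.43% over the 16 samples. The next highest shares were 4.08% in CVS_S_1, 3.82% in CVS_S_5, 3.03% in CVS_C_4 and 2.94% in CVS_C_1, and the other 11 samples lay at or under 1.75%. The wells of a sample differed by 1.01 to 2.49 times, and their intervals did not overlap in CVS_C_1 (1.75% to 4.35%) and CVS_S_4 (4.20% to 7.66%). The 9 sublibraries held 1.45% to 1.95%. The share of neutrophils, by a like rule on their granule genes, was 3.17% to 5.39% in CVS_C_4, CVS_S_4, CVS_S_5 and CVS_S_6 and at most 1.29% in the other 12 samples. In the 8 thymic wells of the same library the rule found 11 of 41838 cells (0.0263%, exact 95% interval 0.0131% to 0.0470%). These intervals cover counting error only.

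**Figure D1:**
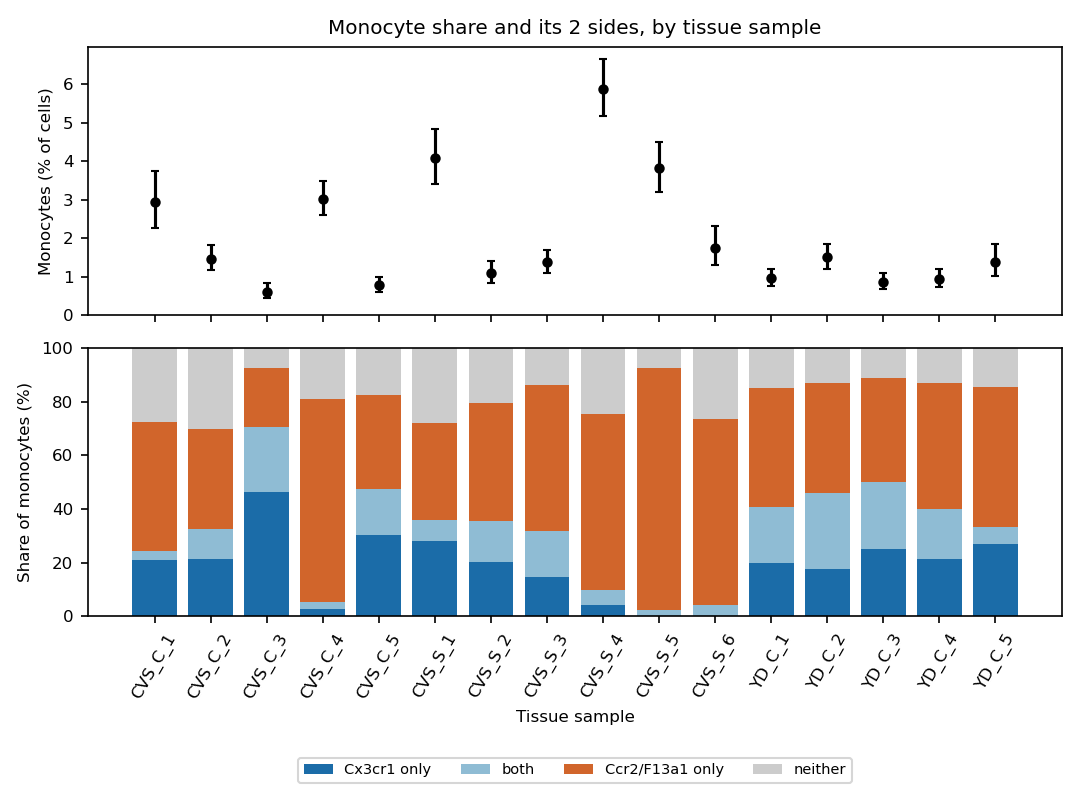
Share of cells that passed the monocyte rule in each of the 16 samples, in percent of the sample's cells, with exact 95% binomial intervals (top), and the percent of those monocytes that held UMIs of Cx3cr1 only, of Ccr2 or F13a1 only, of both or of neither (bottom, stacked bars). The shares run from 0.607% (CVS_C_3) to 5.89% (CVS_S_4), and no monocyte of CVS_S_5 or CVS_S_6 held Cx3cr1 only.

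The level of the gate gene Csf1r ran from 453 to 1078 CPM in the monocytes (median 629) and from 18.1 to 60.4 CPM in the remaining cells, with no overlap. Lyz2, the lysozyme of macrophages, was at 1406 to 2468 CPM (median 2091) against 35.3 to 184 CPM. Ccr2, the receptor that guides classical monocytes out of the marrow, lay at 188 to 464 CPM (median 320) against at most 30.7 CPM. F13a1, a coagulation factor chain made by classical monocytes, spread more widely, from 212 to 2450 CPM (median 1163), and Cx3cr1, the fractalkine receptor, from 11.8 CPM in CVS_S_5 to 295 CPM in CVS_C_3 (median 175). The values of these genes follow from the rule. Of the 1476 cells, 579 showed 2 of the gate genes, 585 showed 3, 249 showed 4 and 63 showed all 5.

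At the edge of the rule, 167 members held exactly 3 UMIs of the gate genes, and 144 cells just outside held 2 UMIs from 2 genes and met every other limit. A further 167 cells met the limits with 3 or more UMIs of a single gate gene, Lyz2 in 84 of them. With the gate genes and the depth alone, 3179 cells would have passed. Among these, 1154 failed the B cell limit, 693 the T cell limit, 322 the neutrophil limit, 291 the macrophage limit and 254 the dendritic cell limit, and a cell could fail several. No UMI of any limit gene was seen in 820 members (55.6%). No doublet caller was run, so that these limits are the only guard against 2 cells under 1 barcode.

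Genes that the rule did not use are described next, which is no check of the label. A gene is called raised in monocytes when its pooled CPM was at least 4-fold that of the remaining cells and it was higher in at least 12 of the 16 samples, among the 16254 genes with 200 or more UMIs. This held for 657 genes (4.04% of those tested), of which 652 lie outside the rule, and the median fold of all genes tested was 0.729. With the same limits 1190 of 10741 genes (11.1%) were lower, counting only genes for which at least 20 UMIs were expected in the monocytes at an equal level. For 401 genes (2.47%) the lowest of the 16 monocyte values lay above the highest of the 16 values of the remaining cells. Such counts describe cells picked by genes of 1 lineage, and companions of those genes had to follow. Companions of the limit genes likewise had to be lower.

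The 20 genes outside the rule with the highest folds hold both faces of the monocyte. Fn1, the gene of fibronectin, which is used here as a classical gene, was at 304 CPM at the lowest, 1112 CPM at the median and 3108 CPM at the highest of the 16 samples, against 16.3 to 131 CPM in the remaining cells (41.3-fold, 39.6-fold without CVS_S_5). The groups of values did not overlap. Ace, the angiotensin-converting enzyme and here a non-classical gene, was 48.4-fold higher (51.0-fold without CVS_S_5), at 19.7 to 1126 CPM with a median of 712 CPM. Here the lowest monocyte value, that of CVS_S_5, fell inside the range of the remaining cells (3.90 to 45.1 CPM). Vcan, versican, had the largest fold, 49.4, and 55.2% of its monocyte UMIs came from CVS_S_5, without which the fold was 40.7.

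Arhgef37, a guanine nucleotide exchange factor, was 47.2-fold higher, at 303 to 862 CPM in the monocytes (median 599) against 5.85 to 25.6 CPM. Colec12, a scavenger receptor of the collectin family, gave 405 to 1080 CPM (median 731) against 10.7 to 41.5 CPM (39.3-fold). Both were apart from the remaining cells in every sample. Plcb1, a phospholipase C, was at 522 to 2419 CPM (median 1002) against 18.3 to 122 CPM (38.6-fold), and Ms4a6d, a membrane protein of the MS4A family, at 156 to 442 CPM (median 282) against 5.01 to 19.3 CPM (36.8-fold). Zfyve9, an adaptor of TGF-beta receptor signalling, was at 196 to 750 CPM (median 475) against 7.83 to 25.6 CPM (34.9-fold). Again the monocyte values lay above all others. The rest of the 20 genes were Dpep2 (48.1-fold), Nupr1 (45.8), F10 (43.1), Ms4a8a (42.8), Gm11651 (42.7), Cyp2ab1 (41.1), ENSMUSG00000120878 (38.7), Gm13814 (37.1), the complement gene Cfb (37.1), the scavenger receptor Msr1 (36.1), Cd300ld (35.9) and Gm48614 (35.7).

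**Figure D2:**
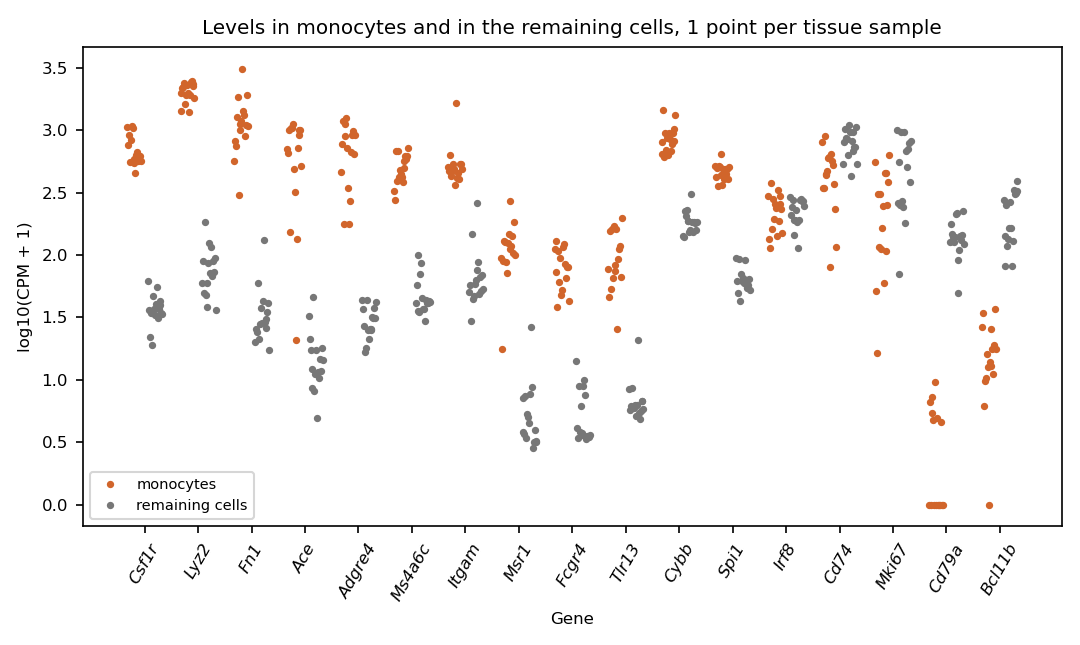
Level of 17 genes in the monocytes and in the remaining cells of each of the 16 samples, as log10(CPM + 1), with 1 point per sample. The gate genes Csf1r and Lyz2 and the genes Fn1, Spi1 and Cybb lie above the range of the remaining cells in all samples, Ace and Msr1 in all but 1, while Irf8 overlaps and Cd79a and Bcl11b, a limit gene of the rule, lie below.

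Of 9 growth factor and cytokine receptors tested outside the rule, 5 were raised, with a median fold of 4.62, and 5 were apart in every sample. Csf2ra, the receptor chain for GM-CSF, was at 109 to 472 CPM (median 261) against 12.4 to 52.6 CPM, and Il6ra, the IL-6 receptor, at 523 to 1003 CPM (median 830) against 70.6 to 187 CPM. Csf3r, the G-CSF receptor that neutrophils carry, was raised 5.30-fold, Csf2rb2 7.61-fold and Ifngr1 4.62-fold. Tgfbr2 was lower in all 16 samples (0.348-fold) but short of the 4-fold limit. The counts of this and the following lists stand beside 4.04% of all genes tested raised and 11.1% lower.

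Chemokine receptors and adhesion molecules gave 4 raised genes of 13 tested. Itgam, the CD11b integrin of myeloid cells, was at 366 to 1659 CPM (median 479) against 28.8 to 260 CPM, with CVS_S_5 the highest, and had no overlap. Itgal, the CD11a integrin, was 4.19-fold higher, Itgax, CD11c, 5.34-fold, and S1pr5, a sphingosine phosphate receptor of patrolling monocytes and natural killer cells, 14.3-fold.

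Myeloid transcription factors were raised in 10 of 16, with a median fold of 6.29. Spi1, which encodes PU.1, was at 357 to 639 CPM (median 487) against 42.1 to 93.7 CPM. Klf4, a factor needed for monocyte differentiation, was at 23.9 to 89.4 CPM (median 44.2) against 0.423 to 3.23 CPM, and Cebpb, a C/EBP factor on which non-classical monocytes depend, at 18.8 to 112 CPM (median 65.1) against 1.12 to 15.8 CPM. None of these ranges overlapped. Nr4a1 (9.14-fold), Zeb2 (6.58), Bach1 (5.41), Nfil3, Cebpa (20.5) and Cebpd (8.25) were among the others raised. Irf8, which monocytes share with B cells and dendritic cells, did not stand out, at 114 to 377 CPM against 113 to 293 CPM.

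Classical genes outside the rule were raised in 9 of 13 tested, with a median fold of 8.80. Ly6c2, which encodes the Ly6C antigen, spread from 7.52 CPM in CVS_S_1 to 267 CPM in YD_C_1 (median 97.0), against 2.29 to 26.2 CPM (10.6-fold, higher in 16 of 16). Ms4a6c was at 274 to 721 CPM (median 488) and Plac8 at 284 to 1012 CPM (median 559), both apart from the remaining cells, and Hp, haptoglobin, was 15.0-fold higher, and Mgst1 was raised too. Chil3 (13.9-fold) fell to 7.93-fold without CVS_S_5, and Mmp8 (8.21-fold) to 3.63-fold, under the limit. Emb, Ms4a4c and Cd177 were among those not raised. Of the 9 raised genes, 4 were higher in the neutrophils of the same wells, chosen by a rule given further on, than in the pooled monocytes. Chil3 was at 473 CPM there against 118 CPM, Mmp8 at 541 against 87.7 CPM, Hp at 448 against 152 CPM and Mgst1 at 57.7 against 41.6 CPM, so that these 4 do not tell the monocytes from neutrophils. Without CVS_S_5 the pooled monocytes were at 51.7 CPM of Chil3 and 30.8 CPM of Mmp8, and the neutrophils at 446 and 544 CPM. Ly6c1 and Ly6c2 share RNA sequence, with 13.9% of the 50-base words of Ly6c2 also found in Ly6c1, and so do Lyz1 and Lyz2 (15.4% of the words of Lyz2), so that the split of reads within these pairs is uncertain. Lyz1 had under 200 UMIs and was not tested.

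Non-classical genes were raised in 10 of 15, with a median fold of 9.14. Adgre4, an adhesion receptor of the EMR family, was at 177 to 1255 CPM (median 746) against 15.7 to 42.6 CPM (24.9-fold), with the lowest monocyte values in CVS_C_4 and CVS_S_5. Treml4 was at 15.8 to 197 CPM (median 101) against 3.39 to 8.95 CPM, and Fcgr4, a receptor for IgG, at 37.2 to 129 CPM (median 79.2) against 2.33 to 13.2 CPM. None of the ranges of these genes overlapped. Cd300e (26.8-fold), Ear2 (33.0), Gngt2 (7.90) and S1pr5 were raised, while Cd36 (3.94) and Eno3 (3.88) missed the limit, which they passed without CVS_S_5 (4.14 and 4.09), and Spn, Pglyrp1 and Pou2f2 stayed within 1.14 to 1.68.

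Stretches just before RefSeq starts were searched for letters that PU.1 and C/EBP factors are known to bind. Of 12 genes looked up, 11 had an entry, with 14 starts. In 250 bases, Ace, F13a1, Ly6c2, Adgre4 and Lyz1 held a match at 1 start or more, and Lyz2, Ccr2, Cx3cr1, Nr4a1, Plcb1 and Vcan held none. The stretches of 4 genes with a match near the start, 2 used as classical and 2 as non-classical genes, are shown here and were picked for that match. They come from RefSeq on GRCm38.p6, are given 5′ to 3′ on the strand of the gene and end at the base before its start, except that of Ace, which leaves out the last 3 bases because an annotated exon covers them. Capitals mark the match. The PU.1 letters were GAGGAAG on either strand and the C/EBP letters TTGC, any 2 bases and AA, on either strand. Fn1 had no entry.
Ace, chr11:105967798-105967944, plus strand: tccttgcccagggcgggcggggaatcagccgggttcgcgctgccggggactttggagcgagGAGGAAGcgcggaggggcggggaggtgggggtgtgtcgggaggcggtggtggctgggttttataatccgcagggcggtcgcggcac
Adgre4, chr17:55749834-55749983, plus strand: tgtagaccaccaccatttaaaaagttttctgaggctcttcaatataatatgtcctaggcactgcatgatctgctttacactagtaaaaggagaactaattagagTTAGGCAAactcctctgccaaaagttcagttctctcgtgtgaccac
F13a1, chr13:37050245-37050394, minus strand: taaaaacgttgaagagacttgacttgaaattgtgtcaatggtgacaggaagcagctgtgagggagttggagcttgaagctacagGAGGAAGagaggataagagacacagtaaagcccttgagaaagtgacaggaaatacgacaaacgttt
Ly6c2, chr15:75111972-75112121, minus strand: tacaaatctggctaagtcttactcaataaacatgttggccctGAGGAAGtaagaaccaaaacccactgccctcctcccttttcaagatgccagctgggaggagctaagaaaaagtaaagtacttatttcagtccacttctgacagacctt

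The PU.1 letters lay 89 to 83 bases before the start in Ace, 66 to 60 in F13a1 and 108 to 102 in Ly6c2. Ace held them also 218 to 212 bases before that start and not before its other start, and F13a1 not before its other start. The same match of Ly6c2 lay 142 to 136 bases before its other start, and a further match lay 8 to 2 bases before that start. The C/EBP letters, read on the other strand, lay 46 to 39 bases before the start in Adgre4, and in Lyz1 209 to 202 bases before it. Over all RefSeq starts, 3486 of 32851 windows of 250 bases (10.6%) held the PU.1 letters and 3142 (9.56%) the C/EBP letters. The same share among the raised genes is not given, because the RefSeq table held a start for 481 of the 652 only (73.8%). The matches are descriptions of the letters and not of binding. In GENCODE M21 on the same assembly the protein-coding genes lie at chr11:105967945-105989964 (Ace), chr17:55749984-55853662 (Adgre4), chr13:36867178-37050244 (F13a1) and chr15:75108158-75111970 (Ly6c2).

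Receptors for antibodies and for uptake formed the list with the most raised members, 13 of 16 with a median fold of 11.5. Clec4a3, an inhibitory C-type lectin, was at 55.2 to 331 CPM (median 203) against 4.69 to 11.2 CPM (30.5-fold). Fcgr1, the high-affinity IgG receptor, was raised 31.6-fold, Fcgr3 16.7-fold, and their signalling chain Fcer1g 15.4-fold. Msr1, a scavenger receptor, was at 16.8 to 272 CPM (median 113) against 1.86 to 25.4 CPM, with CVS_C_2 the lowest and CVS_S_5 the highest. Mrc1, the mannose receptor of tissue macrophages, was lower in the monocytes (0.134-fold).

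Sensors of microbes were raised in 10 of 16, with a median fold of 6.43. Clec7a, the receptor for fungal glucans, was at 42.6 to 172 CPM (median 108) against 3.12 to 9.24 CPM, and Tlr13, which senses bacterial ribosomal RNA, at 24.5 to 199 CPM (median 86.6) against 3.87 to 19.8 CPM. Nlrp3, of the inflammasome, was 12.4-fold, Naip5, a sensor of flagellin, 6.75-fold, Tlr8 13.2-fold and Tlr2 6.12-fold higher. Nod2, a sensor of bacterial wall fragments, was 3.94-fold higher and passed the limit without CVS_S_5 (4.12-fold). Tlr1 (0.395-fold) and Aim2 (0.998-fold), which lymphocytes also express, were not raised.

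Of 10 myeloid kinases and adaptors 1 was raised, the Src family kinase Fgr, at 696 to 1531 CPM (median 1155) against 72.7 to 241 CPM (10.2-fold). The median fold of the list was 1.10, and beside 4.04% of all genes raised nothing is read from its 1 call. Of the NADPH oxidase genes, Cybb, the catalytic subunit, was at 611 to 1448 CPM (median 830) against 139 to 306 CPM. In all 2 of 6 were raised and 4 missed the limit. Of 11 lysosomal genes 4 were raised, namely Mpeg1 (9.87-fold), Grn (6.29), Psap (5.97) and the protease gene Ctsb (5.50).

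Secreted proteins were taken in 2 lists. In the coagulation list 4 of 6 genes tested outside the rule were raised, led by F10, which encodes coagulation factor X, at 33.6 to 492 CPM (median 96.7) against 1.07 to 25.7 CPM. Serpinb2 was 33.5-fold, F5 8.02-fold and Thbs1 21.3-fold higher, the last only 9.12-fold without CVS_S_5. F5 was higher still in the neutrophils of the same wells, at 280 CPM against 51.7 CPM in the pooled monocytes. In the cytokine list 5 of 10 were raised. Ccl6 was at 48.9 to 216 CPM (median 127) against 3.12 to 8.09 CPM, Ccl9 at 17.1 to 110 CPM (median 78.9) against 0.994 to 5.62 CPM and Tgfbi, a matrix protein induced by TGF-beta, at 274 to 1083 CPM (median 519) against 16.8 to 89.7 CPM. Il1b (6.47-fold) and Il1rn (15.3-fold) completed the 5. No UMI of Il6 or Ccl3 was seen in the monocytes, where 3 UMIs, the limit that a count of 0 allows, would give 0.771 CPM.

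Interferon-stimulated genes were raised in 6 of 12, with a median fold of 3.74, and varied with the sample. Irf7, the factor that amplifies the interferon response, was at 23.6 to 360 CPM (median 81.4), with 360 CPM in YD_C_2, 232 CPM in YD_C_5, 225 CPM in YD_C_1 and 145 CPM in YD_C_4 as its highest values. The remaining cells of the same samples were at 75.9, 48.0, 51.3 and 24.9 CPM, against 5.62 to 27.7 CPM in the other samples. Ifitm3 was 25.8-fold, Oasl2 15.3-fold, Ifi44 8.24-fold, Ifi204 5.56-fold and Mx1 4.32-fold higher in the monocytes.

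The MHC class II list held H2 genes with Cd74, the regulator Ciita and Cd86, a costimulatory gene outside class II. Its 8 genes, all tested, gave 0 calls in either direction and a median fold of 0.573. Beside 4.04% of all genes raised, 11.1% lower and a median fold of 0.729 over all genes, nothing is read from so short a list, nor from that of proliferation. Cd74, the invariant chain, was at 78.8 to 904 CPM (median 458) against 427 to 1102 CPM, lowest in CVS_S_5 and above the remaining cells in 3 of the 16 samples. The 10 proliferation genes likewise gave 0 calls, with a median fold of 0.642. Mki67 was at 15.5 to 638 CPM (median 249) against 70.1 to 1004 CPM, and 83 monocytes (5.62%) held 3 or more of its UMIs.

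**Figure D3:**
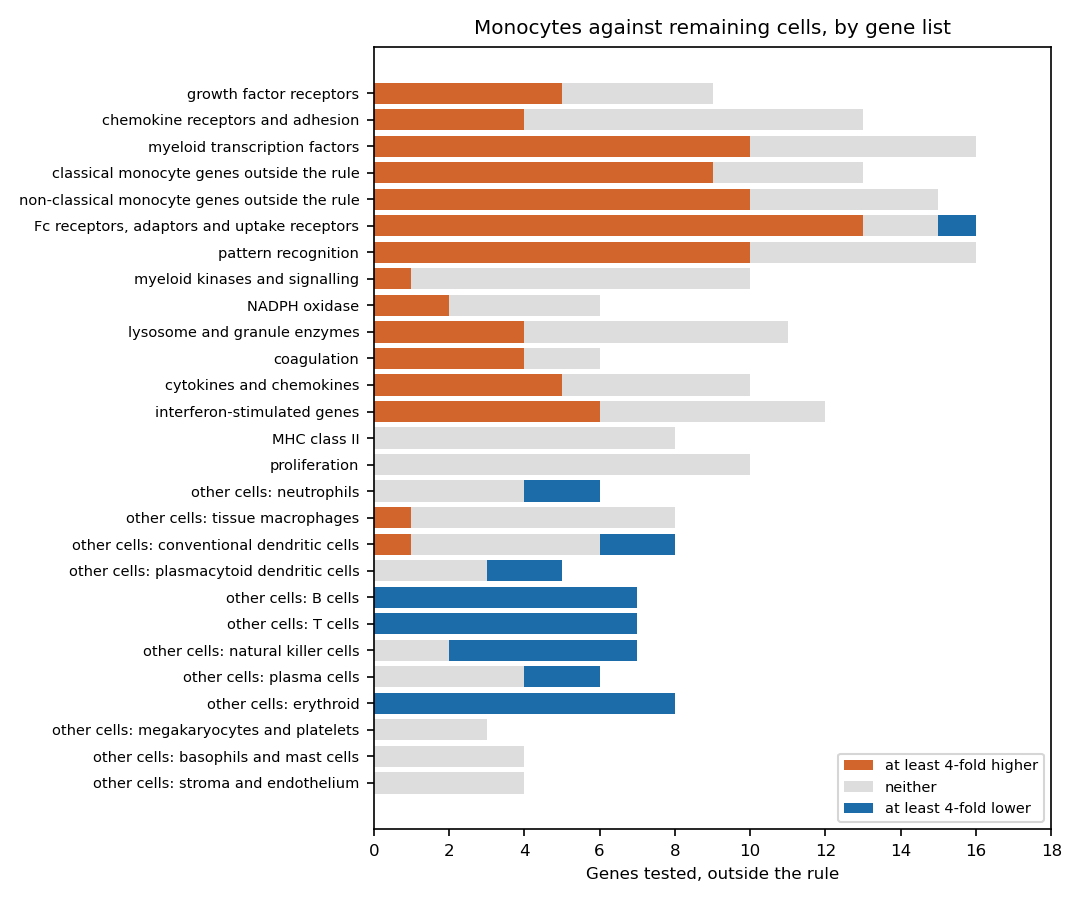
For each gene list, the number of genes tested outside the rule and how many were at least 4-fold higher or lower in the monocytes. Lists of monocyte function lean to higher, the B cell, T cell and erythroid lists are lower in all their tested genes, and MHC class II and proliferation show no call.

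Markers of lymphocytes were low. All 7 B cell genes outside the rule were lower, with a median fold of 0.0197 and summed levels of the list of 41.0 to 125 CPM in the monocytes against 1446 to 3397 CPM. Likewise all 7 T cell genes were lower (35.2 to 134 CPM against 362 to 1977 CPM), as were 5 of 7 natural killer cell genes (0 to 43.5 CPM against 15.1 to 127 CPM), with Nkg7 and Klrb1c at 0 UMIs, and without CVS_S_5 Klre1 lost its call. Of 6 neutrophil genes, 2 were lower and none raised, from which nothing is read beside 11.1% lower and 4.04% raised of all genes tested. Their summed level was 0 to 540 CPM (median 29.4) against 10.7 to 236 CPM. Mpo, the myeloperoxidase of early myeloid cells, reached 501 CPM in YD_C_3 and 414 CPM in YD_C_4, and 21 monocytes held 3 or more of its UMIs.

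Of 8 tissue macrophage genes 1 was raised, Adgre1, which encodes F4/80 and is also made by monocytes (7.96-fold). The list summed to 147 to 792 CPM against 31.3 to 162 CPM, C1qa lay at 0 to 28.5 CPM and Cd5l at 0 UMIs. Mertk, an uptake receptor of macrophages, was at 745 CPM in CVS_S_5 and 0.683-fold in the monocytes of the others. Of 8 dendritic cell genes, Batf3 was raised (4.75-fold) and Ccr7 and Itgae were lower. Beside 4.04% of all genes raised and 11.1% lower, nothing is read from the counts of the macrophage and dendritic cell lists. Of 8 erythroid genes all were lower, yet in CVS_C_1 the monocytes held 477 CPM of Ank1 and 392 CPM of Slc4a1. The part of these signals in the other results was not tested.

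The monocytes were set beside 3 like cell types of the same wells. Each cell needed 500 to 25000 UMIs and at least 3 UMIs, from at least 2 genes, of the gate genes of its type. For macrophages and neutrophils these were the limit genes of the rule, and for dendritic cells Flt3, Xcr1, Clec9a and Zbtb46. Dendritic cells also had to lack UMIs of Siglech and Ccr9. The sum of Csf1r, Ccr2, F13a1 and Cx3cr1 was held at 1 UMI or less. The gate sums of the other types, B and T cells included, were held at 1 UMI or less too. B and T cells were chosen likewise by their limit genes. The gates took 152 macrophages, 1139 neutrophils and 199 conventional dendritic cells. Of the 652 raised genes outside the rule, 304 had their highest pooled level in the monocytes, against 3008 of 16233 genes overall (18.5%). Since the same monocyte counts made these genes raised, nothing is read from this excess. By pairs, 501 lay above the macrophages (55.4% of all genes did), 509 above the neutrophils (55.5%) and 522 above the dendritic cells (45.9%).

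Some genes were low in all 3. The sum of Csf1r, Ccr2, F13a1 and Cx3cr1 was held at 1 UMI or less in these types. Companions of those genes therefore had to be low there, and the values are descriptions only. Fn1 was at 1251 CPM in the pooled monocytes, 0 in the macrophages, 7.01 CPM in the neutrophils and 1.26 CPM in the dendritic cells, Arhgef37 at 622, 4.33, 5.39 and 0 CPM, and Ace at 642, 47.6, 8.08 and 1.26 CPM. A value of 4.33 CPM is 1 UMI in the macrophages, so that low levels there are coarse. Klf4 gave 46.8 CPM against 0, 0 and 3.78 CPM. At least 1 UMI of Ace was seen in 40.9% of the monocytes (28.3% of those thinned to 1000 UMIs). The same share was 1.32% of the macrophages, 0.615% of the neutrophils, 0.503% of the dendritic cells, 0.272% of the B cells and 0.217% of the T cells, the last 2 of which should lack the gene. Median depths were 3020.5, 1507.5, 1559, 3673, 2803 and 2448 UMIs in that order.

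Other genes were also high in 1 or more of the 3 types. Among genes given above as higher than in the remaining cells, some were higher still in a like type. In the neutrophils Csf3r was at 913 CPM (271 CPM in the monocytes) and Cebpd at 47.4 CPM (15.4 CPM). In the macrophages Ctsb was at 1308 CPM (477 CPM) and Tlr8 at 113 CPM (75.1 CPM). Adgre1 (172 CPM in the monocytes) was at 338 CPM in the macrophages, 4.31 CPM in the neutrophils and 230 CPM in the dendritic cells. Adgre4 (679 CPM in the monocytes) was at 442 CPM in the macrophages, 1.62 CPM in the neutrophils and 16.4 CPM in the dendritic cells, and Treml4 (102 CPM) at 130, 42.6 and 8.81 CPM. Itgam (541 CPM) was at 21.7 CPM in the macrophages, 1763 CPM in the neutrophils and 89.4 CPM in the dendritic cells. Itga4 (1358 CPM) gave 329, 180.0 and 1238 CPM in the same order, Itgax (166 CPM) 169, 18.3 and 846 CPM, and Ciita (254 CPM), the master regulator of MHC class II, 165, 19.4 and 1783 CPM. Fgr (1088 CPM) and Spi1 (453 CPM) were carried by all 3, at 693, 979 and 570.1 CPM for Fgr and at 221, 393 and 352 CPM for Spi1.

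The samples differed in both classical and non-classical genes. Among raised genes with 200 or more UMIs, Vcan spread from 8.29 to 1261 CPM, Fn1 from 304 to 3108 CPM and Ace from 19.7 to 1126 CPM. For Ace, CVS_S_2 (1126 CPM), CVS_S_1 (1048 CPM) and CVS_C_5 (1044 CPM) were at the top, and CVS_S_5 (19.7 CPM), CVS_S_6 (134 CPM), CVS_C_4 (153 CPM) and CVS_S_4 (320 CPM) at the bottom. The last 4 are the samples in which neutrophils took over 3% of the cells. Fn1 was highest in CVS_S_5 (3108 CPM) and YD_C_4 (1930 CPM) and lowest in CVS_S_1 (304 CPM).

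Further variable genes were Pde7b, Gbp5 and Gda. Pde7b, a cyclic AMP phosphodiesterase, was at 118 to 1036 CPM, highest in YD_C_5 (1036 CPM) and YD_C_2 (1019 CPM) and at most 580 CPM elsewhere. Gbp5, an interferon-induced GTPase, was at 429 CPM in CVS_S_4, 394 CPM in CVS_C_4 and 324 CPM in CVS_C_1, and at 11.8 to 171 CPM in the other samples. Gda, guanine deaminase, was highest in CVS_S_5 (2080 CPM) and CVS_S_6 (685 CPM), as was Vcan (1261 and 208 CPM), and at 238 CPM or more in the others. These 3 genes were named from the list of variable genes after their values were seen.

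In CVS_S_5 the monocytes carried further genes at levels seen in no other sample. Saa3, an acute phase protein, was at 2726 CPM there and at most 31.3 CPM elsewhere, and 95.6% of its 724 UMIs came from this sample. It held 3 or more UMIs in 80 of the 135 monocytes of CVS_S_5 (59.3%) and in 82 of all 1476. The remaining cells of CVS_S_5 were at 156 CPM of Saa3, against at most 2.46 CPM in the other samples. Chil3 was at 1064 CPM, Mmp8 at 902 CPM and Thbs1 at 583 CPM, against medians of 27.0, 26.2 and 22.4 CPM over the samples. Chil3 and Mmp8 were also high in the pooled neutrophils (473 and 541 CPM), and CVS_S_5 is 1 of the 4 samples with the most neutrophils, whose part in these values was not tested. With 1 sample of this kind no test is possible, and Saa3, Mertk and Thbs1 were singled out after their values were seen, as were Mpo and Timd4. Timd4, a macrophage receptor, held 3 or more UMIs in 7 monocytes and reached 162 CPM in CVS_C_1.

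**Figure D4:**
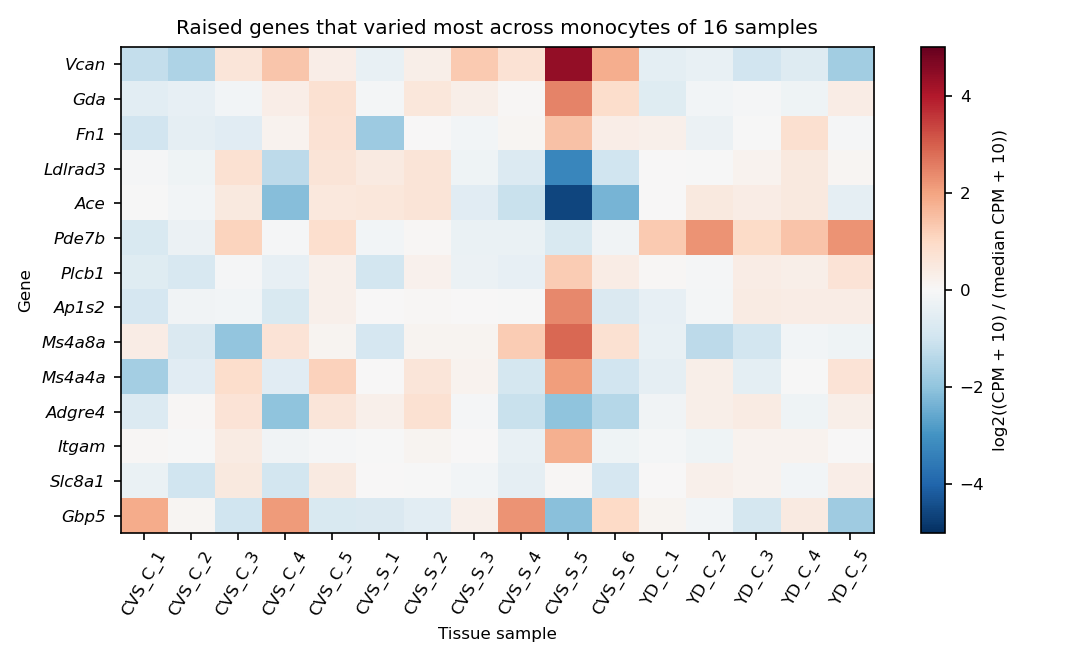
Level of 14 raised genes with a large spread between samples over counting error, as log2 of (CPM + 10) over (median over samples + 10), in the monocytes of each of the 16 samples. Each of the 14 has 556 or more monocyte UMIs, and genes with fewer, such as Chil3 (458) and Mmp8 (341), are not shown. CVS_S_5 is high in Vcan, Fn1, Plcb1, Ms4a8a and Itgam and low in Ace and Adgre4.

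Within the samples, the monocytes were split by the gate genes that mark the 2 kinds. The Cx3cr1 side holds cells with Cx3cr1 and no UMI of Ccr2 or F13a1, and the Ccr2/F13a1 side cells with Ccr2 or F13a1 and no UMI of Cx3cr1. There were 220 cells (14.9%) on the Cx3cr1 side, 815 (55.2%) on the Ccr2/F13a1 side, 164 (11.1%) with genes of both and 277 (18.8%) with neither. The Cx3cr1 side made up 0% of the monocytes in CVS_S_5 (0 of 135) and CVS_S_6 (0 of 49), 2.73% in CVS_C_4 and 4.26% in CVS_S_4, and 14.8% to 46.3% in the other 12 samples, with a median of 20.7% over all. A cell must show a UMI to be placed, so these shares move with depth. On cells thinned to 1000 UMIs the Cx3cr1 side held 13.8% of the cells on either side, against 21.3% at full depth.

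Genes outside the rule were then tested between the sides with edgeR's quasi-likelihood test on UMIs summed per sample and side. The 12 samples with at least 10 cells on each side entered, with the sample as a block, which leaves out CVS_C_3, CVS_C_4, CVS_S_5 and CVS_S_6. They held 10 to 35 cells on the Cx3cr1 side and 22 to 154 on the other. Of 1082 genes tested, 206 (19.0%) were higher on the Cx3cr1 side and 184 (17.0%) on the Ccr2/F13a1 side at a Benjamini-Hochberg adjusted p under 0.05. The median log2 difference of all genes was -0.0450. Since Cx3cr1, Ccr2 and F13a1 both chose the cells and cut the sides, genes known to go with them had to follow. The p-values say only how evenly a difference recurs over the samples and are no independent evidence that the sides are 2 kinds of cell. Samples may share an animal, which would make the p-values too small.

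On the Cx3cr1 side the leading gene was Dusp16, a phosphatase that acts on JNK and p38, at 198 to 1037 CPM in the 12 samples (median 660) against 0 to 122 CPM (median 41.8). The 2 sides did not overlap (log2 difference 3.47, SE 0.22, adjusted p = 2.89e-18, higher in 12 of 12). Ace was at 1020 to 1888 CPM (median 1533) against 99.9 to 636 CPM (median 275), again with no overlap (log2 difference 2.21, SE 0.15, adjusted p = 1.39e-17). Nr4a1, the factor that non-classical monocytes need, was at 231 to 842 CPM (median 467) against 50.4 to 147 CPM (median 72.4), apart in all samples (log2 difference 2.24, SE 0.19, adjusted p = 4.11e-14). The membrane adaptor Pag1 (log2 difference 1.76) and Pik3ap1, an adaptor for PI3 kinase (1.69), were also apart, and Adgre4 (1.74), Setbp1 (2.60), Smc6 (1.66), Cdk14 (1.77) and the Src family kinase Fyn (1.98) completed the 10 genes with the smallest p. Over the whole test 14 genes (1.29%) did not overlap in this direction and 3 (0.277%) in the other.

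The 3 genes apart on the Ccr2/F13a1 side were Fn1, Plcb1 and Atrnl1. Fn1 was at 676 to 3496 CPM (median 1729) against 0 to 451 CPM (median 68.6; log2 difference -4.36, SE 0.22, adjusted p = 2.54e-22, higher in 12 of 12). Plcb1 was at 991 to 2235 CPM (median 1432) against 26.3 to 501 CPM (median 327; log2 difference -2.41, SE 0.16, adjusted p = 6.66e-18). Atrnl1, an attractin-like membrane protein, was at 232 to 878 CPM (median 697) against 0 to 180 CPM (median 59.5; log2 difference -3.57, SE 0.25, adjusted p = 9.55e-17). Ahnak (log2 difference -1.57), the complement gene C3 (-1.81), Morrbid, a long non-coding RNA that prolongs the life of short-lived myeloid cells (-2.45), the interferon-inducible Mndal (-1.32) and Dock10 (-1.01) followed. The leading genes lie at chr6:134715468-134792625 (Dusp16), chr1:71585520-71653200 (Fn1) and chr2:134786067-135475258 (Plcb1) in GENCODE M21 on GRCm38. The mitochondrial transcripts mt-Rnr1 (-1.04) and mt-Co1 (-1.21) were among the 10 as well.

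**Figure D5:**
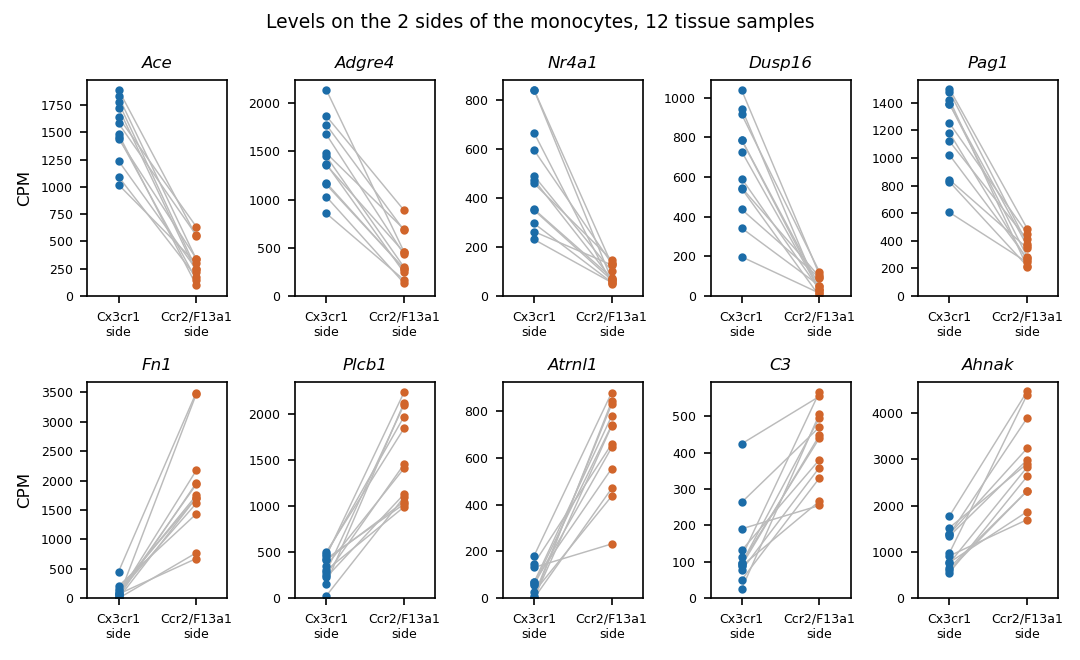
Level in CPM, on linear axes from 0, of 10 genes on the Cx3cr1 side and on the Ccr2/F13a1 side, with 1 point per sample and side and lines joining the 2 sides of each of the 12 samples. Dusp16, Ace, Pag1 and Nr4a1 are higher on the Cx3cr1 side and Fn1, Plcb1 and Atrnl1 on the Ccr2/F13a1 side with no overlap.

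By list, all 6 non-classical genes tested were higher on the Cx3cr1 side, with Pou2f2 (log2 difference 1.41), Spn, CD43 (1.31), and Itgal (1.03) beside Ace, Adgre4 and Nr4a1. Of 5 classical genes 4 were higher on the Ccr2/F13a1 side, namely Fn1, Emb (-1.31), Ms4a4c (-0.74) and Ms4a6c (-0.46), and Plac8 did not pass (log2 difference -0.34, adjusted p = 0.0567). Plac8 did pass without CVS_C_5, CVS_S_3, YD_C_1 or YD_C_4. The summed level of all 14 classical genes was lower on the Cx3cr1 side in 12 of 12 samples (median 1570 against 4460 CPM) and that of the 15 non-classical genes higher in 12 of 12 (7652 against 1978 CPM).

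Of 7 adhesion genes the integrins Itgal, Itgb2 (log2 difference 0.59) and Itga4 (0.50) and Spn were higher on the Cx3cr1 side and Emb on the other. On cells thinned to 1000 UMIs Itga4 lost its call, with a log2 difference of 0.047. Of 8 kinases and adaptors 5 were higher on the Cx3cr1 side, among them Pik3ap1, Fgr (0.76), Pik3r5 (0.46) and Ptpn6 (0.42), and none on the other. The call of Ptpn6 was lost without any 1 of CVS_C_1, CVS_C_2, CVS_C_5, CVS_S_1, CVS_S_4, YD_C_1, YD_C_3 and YD_C_5. Of 9 transcription factors, Nr4a1, Pou2f2, Spi1 (0.48) and Mef2a (0.44) were higher on the Cx3cr1 side and Irf8, which classical monocytes and their precursors use, on the Ccr2/F13a1 side (-1.11). Of 7 growth factor receptors Tgfbr1 (0.83) and Ifngr1 (0.79) were higher on the Cx3cr1 side. These list counts stand beside 19.0% of all 1082 genes tested higher on the Cx3cr1 side and 17.0% on the other. Nothing is read from the count of the receptors.

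The protease gene Ctsb (log2 difference 1.02) and the RNA sensor Tlr7 (1.09) were higher on the Cx3cr1 side. Psap (-0.86), which encodes the sphingolipid activator precursor, Mpeg1 (-0.86), the matrix protein gene Tgfbi (-1.08) and Ciita (-0.80, lost without the block) were higher on the Ccr2/F13a1 side. Of 4 Fc and uptake receptors Clec4a3 was higher on the Cx3cr1 side (0.76) and Pirb on the other (-0.50), the latter lost without any 1 of CVS_C_2, CVS_C_5, CVS_S_3, YD_C_2, YD_C_3 and YD_C_5. None of the 3 NADPH oxidase genes tested passed. Nothing is read from the counts of these last 2 lists, beside 19.0% and 17.0% of all 1082 genes tested. Runx2 (1.16) and Pecam1 (2.07), listed here as markers of plasmacytoid dendritic cells and of endothelium, were higher on the Cx3cr1 side. Tcf4, the other plasmacytoid gene tested, leaned to the Ccr2/F13a1 side without a call (log2 difference -0.52, adjusted p = 0.0595).

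Several calls named above did not hold in every setting. Besides Itga4, thinning ended those of Pik3r5 and Mef2a. With all limit genes at 0 UMIs, a setting with 3 samples, Itga4, Itgb2, Fgr, Pik3r5, Ptpn6, Spi1, Mef2a, Ifngr1, Ctsb, Tgfbi, Ms4a6c and Runx2 did not pass, and Plac8 did. The differences of Itgb2 (0.79), Spi1 (0.51), Ifngr1 (0.56), Itga4 (0.47) and Ptpn6 (0.32) were there within 1.5 times those given above. With no filter on low genes Spi1, Mef2a, Pik3r5, Ptpn6 and Pirb did not pass, and DESeq2 did not call Ptpn6 or Pirb.

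Other measures moved with the sides. The Cx3cr1 side had a median of 3357.5 UMIs a cell against 2711, and Malat1 was higher there (log2 difference 0.47, 0.27 and not called on thinned cells), while mt-Rnr1 and mt-Rnr2 (-0.86) were lower, each in 12 of 12 samples. The 10 proliferation genes summed to a median of 83.6 CPM on the Cx3cr1 side and 1102 CPM on the other, lower in 12 of 12, with none of them abundant enough to be tested. The dendritic cell list summed to 193 against 74.2 CPM (higher in 12 of 12), the macrophage list to 376 against 176 CPM (11 of 12) and the neutrophil list to 0 against 73.7 CPM. The stroma and endothelium list summed to 601 against 114 CPM (12 of 12) and the plasmacytoid dendritic cell list to 679 against 404 CPM (11 of 12). In the first of these Pecam1 alone had medians of 566 and 109 CPM, and Cdh5, Col1a1 and Col3a1 had 0 UMIs in the monocytes. In the second Runx2 had medians of 501 and 179 CPM, while Tcf4 went the other way, at 137 and 189 CPM. Neither sum therefore stands for its list as a whole. The natural killer list had a median of 0 on both sides, at 0 in all 12 samples on the Cx3cr1 side and at most 99.4 CPM on the other. The part of these measures in the results was not tested. Of the 652 raised genes, 154 were tested between the sides, and 48 were higher on the Cx3cr1 side and 37 on the Ccr2/F13a1 side, beside 19.0% and 17.0% of all 1082 genes tested.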

How the data were processed

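The authors ran split-pipe (version not given in the sources used here) on each of 9 sublibraries with an index of the Ensembl mm10 reference, collapsed reads to UMIs and deposited raw UMI counts for every cell and gene. The Mini kit and the 10x data were not used. From the deposited counts, the rule on gate genes was applied to cells in wells outside the 8 thymic ones. The members and the gene lists were chosen with earlier results of these data known. The 20 genes with the highest fold among those raised, the 10 with the smallest p in each direction between the sides, the members of the lists and the near-identical pairs Lyz1/Lyz2 and Ly6c1/Ly6c2 were named. The limit of 20 expected UMIs for lower genes was added after the data were seen. The remaining cells had no depth limit. No doublet caller was run, and no cell barcode with its sublibrary suffix occurred in 2 rows. CPM were computed outside the 3 ribosomal RNA genes Rn18s-rs5, mt-Rnr1 and mt-Rnr2. Depth per sample was 5405078 to 91172408 UMIs.

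The sides were tested with edgeR 4.0.16 (limma 3.58.1, R 4.3.3) by the quasi-likelihood test, with TMM factors, filterByExpr, the sample as a block and Benjamini-Hochberg adjustment over 1082 genes. All cells of a sample come from 1 suspension, which pairs its sides; after removal of the side means, the 2 sides of a sample correlated at r of 0.0938 to 0.352 (median 0.174), over 0.1 in 11 of 12. DESeq2 1.42.0 was an alternative. The test was tried on simulated counts with known changes. Further work used Python 3.11.15, numpy 2.4.6, scipy 1.17.1, pandas 2.3.3 and matplotlib 3.10.9. Intervals are exact Clopper-Pearson intervals. RefSeq windows were matched by symbol. Some listed genes are not reported here.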

Additional observations from a re-analysis of the deposited data

How the results depend on the processing

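The monocyte share of 1.70% became 1.51% with at least 4 gate UMIs, 0.963% without Lyz2, 0.945% with all limit genes at 0 UMIs and 1.16% in cells thinned to 1000 UMIs, and lay at 1.499% to 1.80% with 1 sample left out. The Cx3cr1 side, 21.3% of the cells on either side, became 13.8% after thinning and 9.58% when a side needed 2 UMIs, and lay at 19.4% to 24.1% with 1 sample left out. The test of the Cx3cr1 side against Ccr2/F13a1 side gave 390 genes (206 and 184). Without a filter it gave 811 (296 on the Cx3cr1 side and 515 on the other) of 17043 tested, with all limit genes at 0 it gave 65 (40 and 25) from 3 samples and 541 genes, and on thinned cells 71 (36 and 35) from 10 samples and 195 genes. In the last 2 settings fewer samples and genes could be tested. DESeq2 gave 337 genes, RLE factors 391 and the fit with no replicate block 343 (191 and 152), in which Ciita, Pirb, Cmss1 and Ptpn6 lost their calls and no other listed or leading gene did. With 1 sample left out the count was 360 to 406. The test with 2 UMIs per side could not be run, since no sample kept enough cells. Of the values of listed and leading genes between the sides under the alternatives, 1368 kept their direction and side of the threshold, 26 gained and 52 lost significance and 0 reversed. On thinned cells the log2 difference was 0.047 for Itga4 and 0.27 for Malat1 and without a call, and 1.12 for Pik3ap1, which kept it. With all limit genes at 0 it was 0.030 for Pik3r5, 0.12 for Mef2a, 0.34 for Runx2, 0.37 for Fgr, 0.66 for Ctsb, -0.57 for Tgfbi and -0.73 for Ms4a6c, all without a call, and 0.94 for Pag1, which kept it, and Plac8 gained one at -1.09. Of the 657 raised genes, 440 were also raised on thinned cells, 508 with at least 1000 UMIs required, 510 against cells of the B cell gate alone (chosen after seeing the data), 542 with all limit genes at 0, 593 by the median of within-sample folds, 617 with ribosomal RNA in the total, 634 against remaining cells of 500 to 25000 UMIs (chosen after seeing the data), 642 with at least 4 gate UMIs and 657 with no filter. With 1 sample left out 603 to 652 genes were raised, of which 588 to 644 belonged to the 657. Genes under 200 UMIs were too shallow to be called.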
